A study of Mus musculus with 40 samples.

Results

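The 10 genes described here encode ligands, receptors and feedback regulators of TGF-β and BMP signalling in mouse melanoma cells that differ in their Bmal1 status. They were Tgfb1, Tgfb2, Tgfb3, Inhba, Bmp4, Grem1, Tgfbr1, Tgfbr2, Tgfbr3 and Smad7, taken by symbol from the 51789 genes of the count table. QuantSeq, which sequences 1 tag from the 3′ end of each transcript, was applied to 40 libraries in 20 groups of 2. YUMM2.1 cells (among other alleles mutant Braf, 1 lost copy of Cdkn2a and a stabilised β-catenin allele) and YUMM1.7 cells (among other alleles mutant Braf, no Cdkn2a) carried an empty vector (EV), wild-type Bmal1 (WT-Bmal1) or Bmal1 without its DNA-binding domain (dHLH-Bmal1), each delivered by lentivirus with GFP and sorted for GFP. The same 3 constructs were put into aC3, a single clone of YUMM2.1 in which Bmal1 had been disrupted by CRISPR. Per the study's methods, the YUMM2.1 cells and aC3 both carried a Bmal1 luciferase reporter when the constructs were added. A further set of YUMM2.1 cells carried each construct together with a scrambled hairpin (shNC) or a hairpin against Myh9 (shMyh9#2 or shMyh9#4), under puromycin selection. B16-F10 cells were compared as a Bmal1 knockout (KO) clone and a control clone (Ctrl), so that in B16-F10, as in aC3, the effect of Bmal1 loss and the identity of the clone cannot be told apart.

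TGF-β ligands bind Tgfbr2, which recruits and activates Tgfbr1, and the pair then phosphorylates Smad proteins that enter the nucleus. Tgfbr3 (betaglycan) is a co-receptor that presents ligand, above all Tgfb2, to Tgfbr2. Inhba encodes the subunit of activin A, Bmp4 is a bone morphogenetic protein, Grem1 (gremlin) is a secreted protein that binds and blocks BMPs, and Smad7 is an inhibitory Smad whose own transcription is raised by the pathway. In melanoma these signals are known for links to pigment cell differentiation and to invasive, mesenchymal-like states. Bmal1 (gene symbol Arntl) with its partner Clock activates transcription from E-box sequences.

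Library totals ran from 3643332 to 22970049 counts, with a median of 10021164.5, so that 1 CPM (the counts of a gene scaled to a common library size by TMM over all 40 libraries) was about 10 counts at the median. The study's figure legends call such libraries biological replicates, and the labels do not say whether they came from separate cultures. P-values measure only the spread between the 2 libraries of a group. That spread was estimated jointly over all groups of a fit, with information shared across genes. The 2 YUMM2.1 libraries EV replicate 2 and WT replicate 1 stood with the other construct in the study's own supplementary gene table, whose columns for 1 EV and 1 WT library matched them crosswise. Results that rest on them are given as labelled, and calls of members that end or appear with these 2 labels exchanged are given with their exchanged values. Arntl had 319 and 221 counts in B16-F10 Ctrl and 326 and 240 in KO, but a 3′ tag counts the end of the transcript whether or not an edit disrupts its coding part, and so does not check the knockout. In aC3 Arntl stood at 33.1 and 30.5 CPM with EV and 18.2 and 17.5 with WT-Bmal1. Whether the transcripts of the constructs carry the counted end was not given in the sources used here. Myh9 fell from 665-994 CPM with shNC to 229-291 with shMyh9#2 and 466-679 with shMyh9#4 across the constructs. The 7 melanocytic markers summed to 19800-26100 CPM in B16-F10 and to 10.7-14.8 in YUMM1.7, where Dct, Mlana and Tyrp1 had no counts, as they had none in YUMM2.1 without hairpin and aC3. Over all libraries the 5 leukocyte markers summed to 0.416-3.95 CPM, the 4 epithelial markers to 0.0-1.95 and the 3 endothelial markers to 3.75-26.4. Of these, Epcam and Cd3e had no counts in any library, while Cd68 reached 31 counts, Krt8 21 and Cdh5 290 in hairpin libraries.

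The levels of the members differed between the cell lines (plot of ligand levels by group). Tgfb2, the ligand with the strongest need for betaglycan, stood at 109 and 87.6 CPM in YUMM2.1 EV cells, 39.2 and 39.9 in B16-F10 Ctrl cells and 13.3 and 14.3 in YUMM1.7 EV cells, with no overlap. YUMM1.7 was lower than YUMM2.1 by a log2 difference of -2.84 (SE 0.22, adjusted p = 3.74e-11), and B16-F10 was lower by -1.32 (SE 0.2, adjusted p = 4.3e-06). Tgfb1, the TGF-β isoform found most widely across tissues, was also lower in YUMM1.7 than in YUMM2.1 (7.31 and 6.93 against 27.7 and 28.5 CPM; log2 -1.98, SE 0.35, adjusted p = 5.12e-05). Tgfb3 ran the other way, at 13.2 and 16.1 CPM in YUMM1.7 and 6.06 and 3.02 in YUMM2.1 (log2 1.67, SE 0.33, adjusted p = 0.000209). The antagonist Grem1 varied over the widest range among the members. It stood at 257 and 241 CPM in YUMM1.7 EV and 3.07 and 14.7 in YUMM2.1 EV, and it had 0 counts in both B16-F10 Ctrl libraries, which allows up to 0.143 and 0.146 CPM at a floor of 3 counts per library. At that floor Grem1 was at least 1730-fold higher in YUMM1.7 EV and at least 61.5-fold higher in YUMM2.1 EV as labelled than in B16-F10 Ctrl, where counting error alone is covered. With the doubtful labels exchanged the YUMM2.1 EV bound is at least 19.8-fold. Inhba was low in B16-F10 (0.242-0.62 CPM) and stood at 13.0 and 15.4 CPM in YUMM1.7 EV and 3.32 and 12.2 in YUMM2.1 EV. The difference between YUMM1.7 and YUMM2.1 did not pass as labelled (log2 0.92, adjusted p = 0.0554) and passed with the 2 doubtful labels exchanged (log2 2.06, adjusted p = 2.6e-09). Bmp4 was near the limit of detection, with 7-14 counts in YUMM1.7 libraries, 1-6 in B16-F10, and 0 in aC3 and in YUMM2.1 EV and WT-Bmal1 cells without hairpin. The YUMM1.7 EV level was at least 3.34-fold higher than in YUMM2.1 EV, whose libraries had 0 counts.

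**Figure D1:**
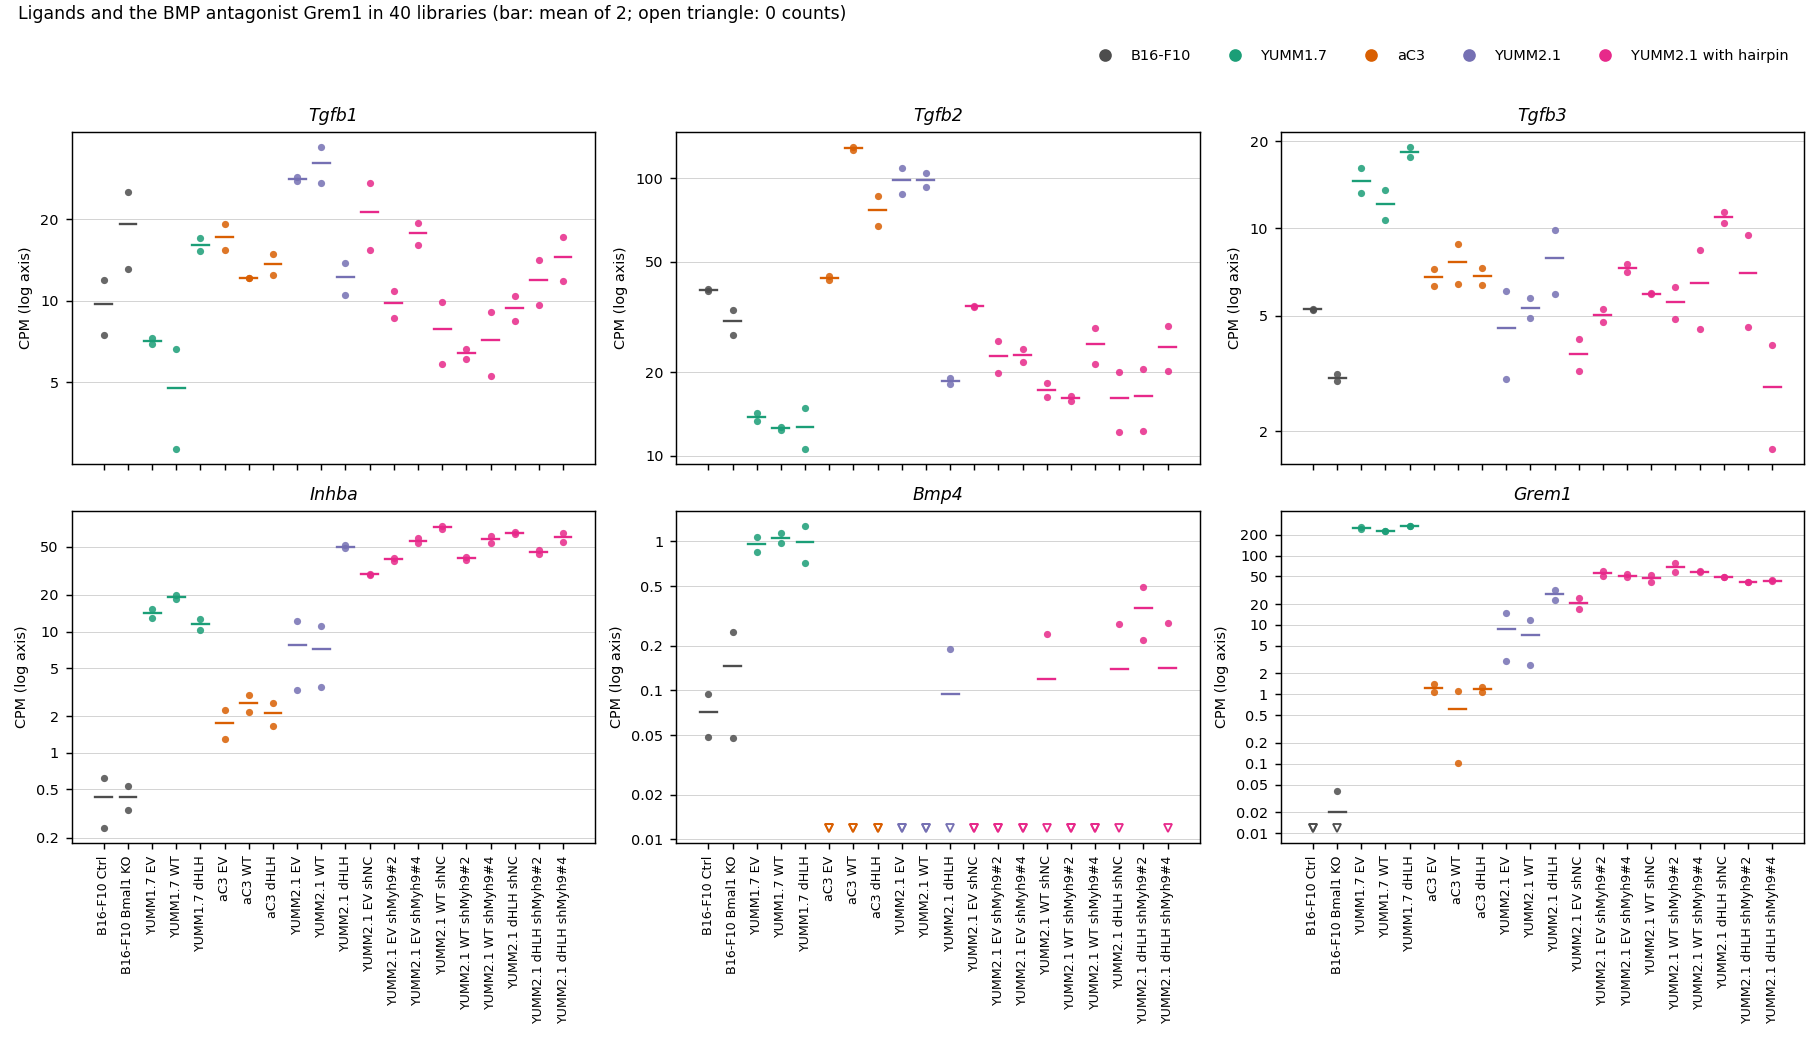
CPM on log axes of 5 ligands and of Grem1 in all 40 libraries; points are libraries, bars are means of 2, and open triangles mark libraries with 0 counts. Grem1 runs from 0 counts in B16-F10 Ctrl to 224-268 CPM in YUMM1.7, and Tgfb2 of aC3 rises from 42.9 and 44.4 CPM with EV to 130 and 127 with WT-Bmal1.

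Among receptors, the type I receptor Tgfbr1 was highest in B16-F10 Ctrl (26.5 and 27.7 CPM against 11.5 and 8.41 in YUMM2.1 EV; log2 1.43, SE 0.26, adjusted p = 3.33e-05). The co-receptor Tgfbr3 was highest in YUMM1.7 (50.8 and 50.4 CPM in EV) and lowest in B16-F10 (3.43 and 2.67 in Ctrl), with YUMM2.1 EV between them at 28.3 and 15.1. The type II receptor Tgfbr2 was lower in B16-F10 Ctrl than in YUMM2.1 EV (16.4 and 13.1 against 68.3 and 30.2 CPM; log2 -1.74, SE 0.27, adjusted p = 4.34e-06). In YUMM2.1 EV its 2 libraries lay far apart, and the lower level in YUMM1.7 (log2 -0.82, adjusted p = 0.0184) was lost without YUMM2.1 EV replicate 1, where it was -0.1 with an adjusted p of 0.85, and without YUMM1.7 EV replicate 1 (adjusted p = 0.17). Smad7 stayed within 2.65-10.4 CPM in all 40 libraries, and its higher level in B16-F10 Ctrl than in YUMM2.1 EV (log2 0.76, adjusted p = 0.0191) was lost without B16-F10 Ctrl replicate 1 (adjusted p = 0.1) or YUMM2.1 EV replicate 1 (adjusted p = 0.21). In all, 7 of 10 members differed between YUMM1.7 EV and YUMM2.1 EV, 8 of 10 between B16-F10 Ctrl and YUMM2.1 EV, and 8 of 10 between B16-F10 Ctrl and YUMM1.7 EV. Of all genes tested, 31.8%, 46.9% and 47.6% differed in these comparisons, which share control libraries. Exchanging the doubtful labels ended none of the members' calls between YUMM1.7 or B16-F10 and YUMM2.1 and added that of Inhba in YUMM1.7. The B16-F10 Smad7 call against YUMM2.1 was lost with no filter on low counts (adjusted p = 0.096), and the Bmp4 call between B16-F10 and YUMM1.7 with no filter (0.12) or with DESeq2's Wald test (0.22). The Bmp4 calls were lost without either YUMM2.1 EV library (adjusted p = 0.1 and 0.078) or without any of the 4 libraries of the B16-F10 and YUMM1.7 comparison (adjusted p from 0.062 to 0.16). The Tgfbr3 call against YUMM1.7 was lost without YUMM2.1 EV replicate 2 (adjusted p = 0.056), and the Tgfbr2 call between B16-F10 and YUMM1.7 without B16-F10 Ctrl replicate 2 (0.07) or YUMM1.7 EV replicate 2 (0.069). The labels do not say whether the lines were prepared together, so that line and preparation cannot be told apart.

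**Figure D2:**
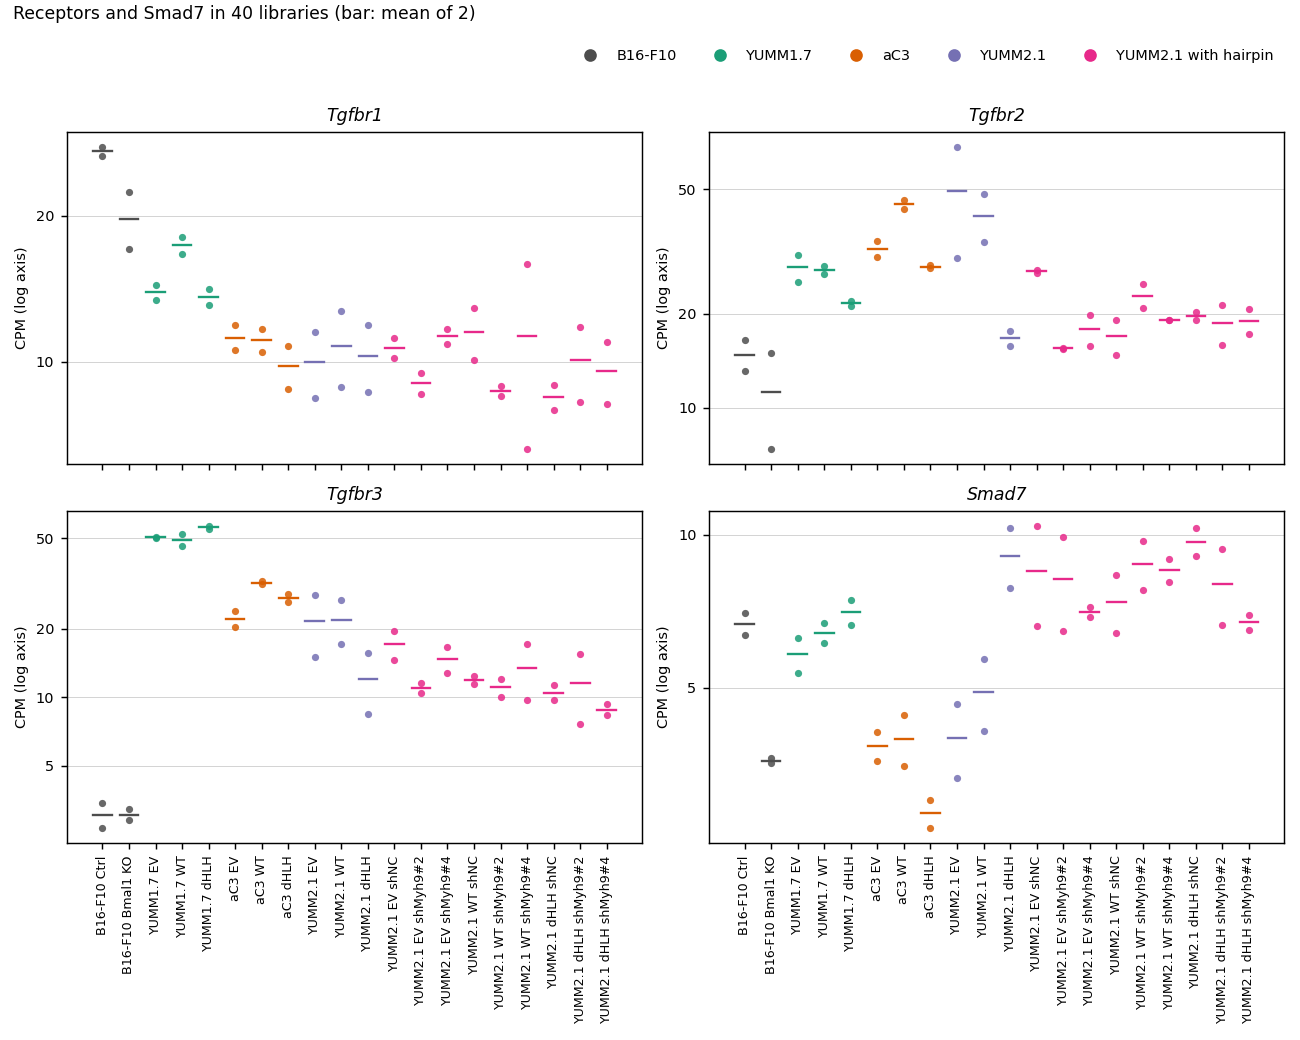
CPM on log axes of the 3 receptors and of Smad7 in all 40 libraries; points are libraries and bars are means of 2. Tgfbr3 separates YUMM1.7 (46.3-56.8 CPM) from B16-F10 (2.67-3.43 CPM), whereas Smad7 lies within 2.65-10.4 CPM in every group.

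YUMM2.1 cells with EV were measured both without a hairpin and with shNC in the hairpin experiment. The shNC cells had less Tgfb2 than the cells without a hairpin (34.7 and 34.5 against 109 and 87.6 CPM; log2 -1.51, SE 0.21, adjusted p = 2.15e-05) and more Inhba (29.7 and 29.3 against 3.32 and 12.2 CPM; log2 1.97, SE 0.36, adjusted p = 0.000535). Tgfbr2 was also lower (log2 -0.86, adjusted p = 0.0375) and Smad7 higher (log2 1.1, adjusted p = 0.00776). So 4 of 10 members differed between cells of the same line and construct, where 10.7% of all genes did. The Tgfbr2 difference was lost without YUMM2.1 EV replicate 1 (log2 -0.15, adjusted p = 0.86) or either shNC library (0.16 and 0.18), and that of Smad7 without YUMM2.1 EV replicate 1 (0.17) or shNC replicate 1 (0.2). The knockout clone aC3 with EV had less Tgfb2 than YUMM2.1 EV (42.9 and 44.4 against 109 and 87.6 CPM; log2 -1.17, SE 0.2, adjusted p = 0.000687). Inhba (2.24 and 1.3 CPM; log2 -2.08, adjusted p = 0.00857) and Grem1 (1.07 and 1.39 CPM; log2 -2.79, adjusted p = 0.00857) were lower too, and these 3 of 10 members stood beside 2.48% of all genes. The Inhba and Grem1 calls rested on YUMM2.1 EV replicate 2, a library of doubtful label. Without it the differences were -0.92 (adjusted p = 0.57) and -1.34 (adjusted p = 0.53). They were lost as well without aC3 EV replicate 2 (0.22 for Inhba and 0.099 for Grem1) and, for Grem1, without aC3 EV replicate 1 (0.16). Fitted on the compared groups alone, the aC3 calls of Inhba (0.079) and Grem1 (0.074) and the shNC call of Tgfbr2 (0.072) were lost. With the 2 labels exchanged Grem1 was no longer called (log2 -1.21, adjusted p = 0.074) and Tgfbr2 was (-0.86, adjusted p = 0.015), and Grem1 was called higher in the shNC cells (2.86, adjusted p = 7.3e-09) in place of 1.28 (adjusted p = 0.0575) as labelled.

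In the Bmal1-deficient clone aC3, giving WT-Bmal1 back raised Tgfb2 about 3-fold and raised the receptors Tgfbr2 and Tgfbr3 by smaller amounts. Tgfb2 went from 42.9 and 44.4 CPM with EV to 130 and 127 with WT-Bmal1 (2.94-fold; log2 1.55, SE 0.11, adjusted p = 2.97e-06). With dHLH-Bmal1, which lacks the DNA-binding domain, it stood at 86.6 and 67.4 CPM, above EV by 1.75-fold (log2 0.81, SE 0.11, adjusted p = 0.00075) and below WT-Bmal1 (log2 -0.75, SE 0.11, adjusted p = 0.00305). The 3 groups of libraries did not overlap. Tgfbr2 was 30.3 and 34.0 CPM with EV, 46.1 and 43.2 with WT-Bmal1, and 28.5 and 27.9 under dHLH-Bmal1. It rose with WT-Bmal1 against EV (log2 0.47, SE 0.11, adjusted p = 0.0152) and was lower with dHLH-Bmal1 than with WT-Bmal1 (log2 -0.67, SE 0.11, adjusted p = 0.0129). Tgfbr3 went from 23.9 and 20.4 to 31.5 and 32.5 CPM with WT-Bmal1 (log2 0.53, SE 0.12, adjusted p = 0.0146), with dHLH-Bmal1 at 28.5 and 26.2. Tgfb1 gave the opposite sign with WT-Bmal1 (15.4 and 19.1 against 12.1 and 12.1 CPM) and did not pass (log2 -0.51, adjusted p = 0.0826). Tgfb3, Tgfbr1, Smad7, Inhba and Grem1 passed in none of the 3 comparisons, with Inhba at 1.3-3.02 CPM and Grem1 at 0.103-1.39 CPM throughout. Thus 3 of 9 tested members passed for WT-Bmal1 against EV (11.2% of all genes), 1 of 9 for dHLH-Bmal1 against EV (10.9%) and 2 of 9 between the 2 constructs (0.877%), and these comparisons share libraries.

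The Tgfb2 calls against EV held without any single library. That between the constructs missed the threshold without aC3 WT replicate 1 (adjusted p = 0.051). The Tgfbr2 rise was lost without any of its 4 libraries (adjusted p from 0.053 to 0.15), and its difference between constructs without WT replicate 1 (0.13) or 2 (0.061). The Tgfbr3 rise was lost without EV replicate 2 (0.17), WT replicate 1 (0.079) or WT replicate 2 (0.11). In 1 fit of all 40 libraries, which shares 1 estimate of the spread, the rises of Tgfbr2 (adjusted p = 0.46) and Tgfbr3 (0.43) and the differences between constructs of Tgfb2 (0.33) and Tgfbr2 (0.93) were lost.

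Since Tgfb2 is the member that followed WT-Bmal1 most closely in the knockout clone, and Inhba and Grem1 those that both Bmal1 constructs raised in shNC cells (values given with the hairpin experiment), the 250 bases before the RefSeq start of these 3 genes (GRCm38.p6, strand of the gene) are shown for what motifs they hold. Capitals mark CACGTG, the E-box bound by Bmal1 and Clock; a sequence without capitals has no match. Tgfb2 (chr1:186705990-186706239, minus strand) has the motif 51 bases before its start. Inhba (chr13:16011601-16011850, plus strand) and Grem1 (chr2:113758649-113758898, minus strand) have none.
Tgfb2: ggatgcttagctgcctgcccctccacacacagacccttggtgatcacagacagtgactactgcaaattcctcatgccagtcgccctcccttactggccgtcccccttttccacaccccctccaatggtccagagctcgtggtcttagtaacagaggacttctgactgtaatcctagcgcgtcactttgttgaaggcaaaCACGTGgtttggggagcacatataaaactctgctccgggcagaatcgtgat
Inhba: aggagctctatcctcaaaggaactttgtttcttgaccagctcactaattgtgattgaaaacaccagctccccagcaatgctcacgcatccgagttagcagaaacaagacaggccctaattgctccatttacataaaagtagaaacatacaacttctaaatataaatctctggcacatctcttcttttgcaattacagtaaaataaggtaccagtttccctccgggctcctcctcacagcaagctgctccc
Grem1: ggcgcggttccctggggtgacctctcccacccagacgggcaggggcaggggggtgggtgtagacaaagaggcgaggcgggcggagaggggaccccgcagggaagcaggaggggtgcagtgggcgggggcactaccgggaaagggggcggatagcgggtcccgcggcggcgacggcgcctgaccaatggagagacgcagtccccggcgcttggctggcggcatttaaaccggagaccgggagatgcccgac
Of the 10 members 7 were found in the promoter table, with 8 starts, and besides Tgfb2 the Bmp4 promoter (chr14:46390670-46390919, minus strand) held the E-box, 188 bases before its start. CACGTG, which reads the same on both strands, occurred in 6.02% of the 32851 promoter windows. The AP-1 motif TGANTCA, also the same on both strands, was in 6.75% and the CArG box in 1.47%, and neither was in a member's window. A match is a match of letters only. Tgfb2 was also higher with dHLH-Bmal1 than with EV in aC3 (log2 0.81), and lower with WT-Bmal1 than with EV in shNC cells. Whether Bmal1 acts through the motif was not tested.

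In YUMM2.1 cells with their own Bmal1, dHLH-Bmal1 lowered the TGF-β ligands Tgfb1 and Tgfb2 and the receptor Tgfbr2, and raised Inhba and Smad7, whereas WT-Bmal1 could not be told from EV as labelled. Tgfb2 was 109 and 87.6 CPM with EV, 105 and 93.1 with WT-Bmal1, and 19.1 and 18.1 under dHLH-Bmal1. The dHLH-Bmal1 libraries were the lowest, at 0.189-fold of EV (log2 -2.4, SE 0.16, adjusted p = 0.00103) and 0.189-fold of WT-Bmal1 (log2 -2.41, adjusted p = 0.00113). Tgfb1 was 27.7 and 28.5 CPM with EV, 36.9 and 27.2 with WT-Bmal1, and 10.5 and 13.8 under dHLH-Bmal1 (log2 -1.21 against EV, SE 0.22, adjusted p = 0.0164; log2 -1.4 against WT-Bmal1, adjusted p = 0.0105). Inhba stood at 48.6 and 51.5 CPM with dHLH-Bmal1, above all 4 other libraries (3.32 and 12.2 with EV, 3.5 and 11.0 with WT-Bmal1). The rise was 6.6-fold against EV (log2 2.72, SE 0.64, adjusted p = 0.0362) and 7.01-fold against WT-Bmal1 (adjusted p = 0.0325). Tgfbr2 fell from 68.3 and 30.2 CPM to 17.6 and 15.8 (log2 -1.56, SE 0.38, adjusted p = 0.0398). Smad7 rose from 3.32 and 4.64 to 10.3 and 7.85 CPM (log2 1.2, SE 0.32, adjusted p = 0.0498). Grem1 was 32.0 and 23.2 CPM with dHLH-Bmal1 against 3.07 and 14.7 with EV, did not overlap, and did not pass as labelled (log2 1.67, SE 0.78, adjusted p = 0.218). Tgfb3, Tgfbr1 and Tgfbr3 did not pass. Of 9 tested members, 5 passed for dHLH-Bmal1 against EV (13.2% of all genes), 3 against WT-Bmal1 (13.0%) and 0 for WT-Bmal1 against EV (0.0%). In that last comparison 0 of 9 members had an unadjusted p under 0.05, 98 of the 14323 genes tested in edgeR had one, and DESeq2 called 0 members and 1 gene. The paper reported mesenchymal genes raised by WT-Bmal1 in these cells, and this comparison as labelled includes both libraries of doubtful label.

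With the labels of EV replicate 2 and WT replicate 1 exchanged, WT-Bmal1 also raised Inhba and Grem1. The EV libraries then held 3.32 and 3.5 CPM of Inhba and the WT-Bmal1 libraries 12.2 and 11.0, and the groups no longer overlapped (log2 1.75, SE 0.18, adjusted p = 0.0057). Grem1 went from 3.07 and 2.65 CPM to 14.7 and 11.6 (log2 2.18, SE 0.26, adjusted p = 0.0096). In that reading 2 of 9 members passed for WT-Bmal1 against EV (0.705% of all genes), 7 of 9 for dHLH-Bmal1 against EV (28.7%) and 5 of 9 between the constructs (18.9%). Against EV, dHLH-Bmal1 then changed Inhba (log2 3.87, adjusted p = 3e-06), Grem1 (3.27, adjusted p = 4e-05), Smad7 (1.3, adjusted p = 0.0078), Tgfb1 (-1.41, adjusted p = 0.0011), Tgfb2 (-2.52, adjusted p = 3.1e-06), Tgfbr2 (-1.79, adjusted p = 0.00023) and Tgfbr3 (-1.17, adjusted p = 0.01). As labelled but with the replicate number as a block, 7 of 9 members passed for dHLH-Bmal1 against EV (27.1% of all genes), 7 of 9 against WT-Bmal1 (26.0%) and 0 of 9 for WT-Bmal1 against EV (0.014%), where their log2 changes lay between -0.29 and 0.3. By the labels of the supplementary gene table, replicate 1 as labelled would hold both EV libraries and replicate 2 both WT-Bmal1 libraries. The block would then remove the difference between WT-Bmal1 and EV itself. Its 0 of 9 for that comparison therefore cannot tell whether WT-Bmal1 acts, and the calls it added depend on the labels. The members added by the block against EV were Grem1 (log2 2.03, SE 0.54, adjusted p = 0.02) and Tgfbr3 (-0.84, SE 0.17, adjusted p = 0.0062). Against WT-Bmal1 they were Grem1 (2.32, adjusted p = 0.012), Smad7 (0.93, adjusted p = 0.049), Tgfbr2 (-1.27, adjusted p = 0.0022) and Tgfbr3 (-0.87, adjusted p = 0.0051). The Tgfb2 calls held in both readings, with the block and without any single library.

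**Figure D3:**
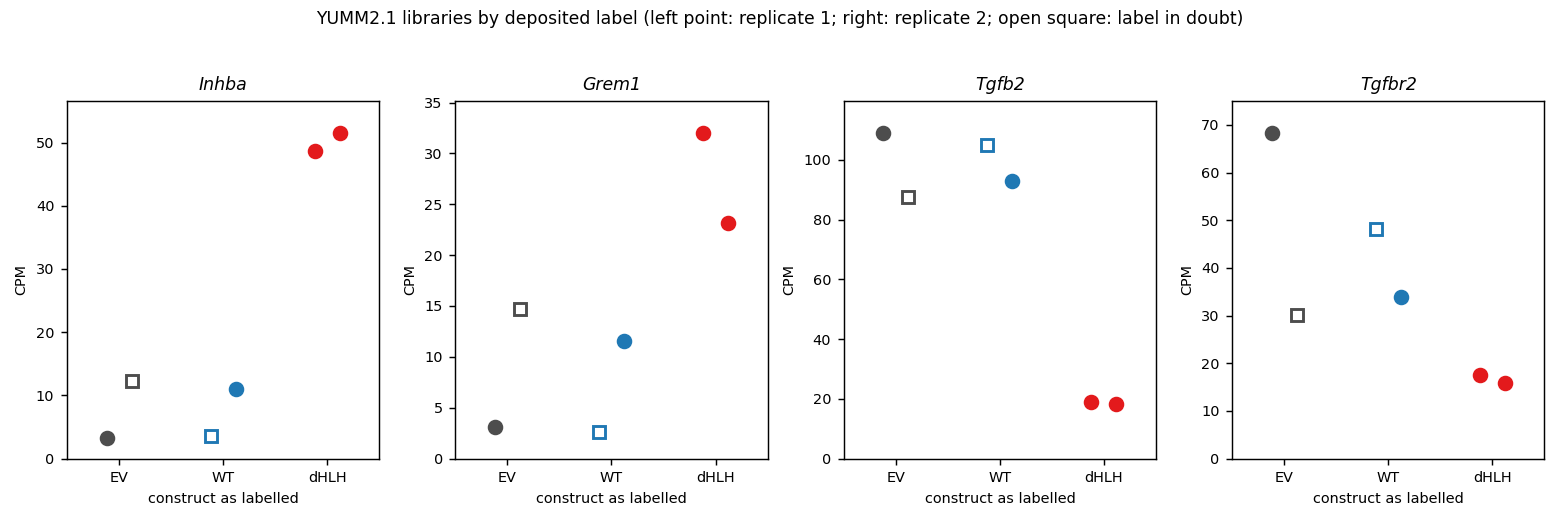
CPM of Inhba, Grem1, Tgfb2 and Tgfbr2 in the 6 YUMM2.1 libraries without a hairpin, by deposited label; open squares are the 2 libraries of doubtful label. For Inhba the square under EV (12.2 CPM) lies beside the filled WT-Bmal1 point (11.0), and the square under WT-Bmal1 (3.5) beside the filled EV point (3.32).

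Other YUMM2.1 calls depended on single libraries. Against EV, Tgfb1 was lost without EV replicate 1 (adjusted p = 0.057) or dHLH replicate 1 (0.069). Inhba was lost without EV replicate 1 (log2 2.04, adjusted p = 0.09), dHLH replicate 1 (0.084) or dHLH replicate 2 (0.1). Tgfbr2 was lost without EV replicate 1 (log2 -0.85, adjusted p = 0.13), dHLH replicate 1 (0.11) or dHLH replicate 2 (0.15), and Smad7 without any of the 4 (0.066 to 0.23) or with only genes of a mean of at least 10 counts (0.05). Against WT-Bmal1, Tgfb1 was lost without WT replicate 1 (0.094) or dHLH replicate 1 (0.05), and Inhba without WT replicate 1 (0.18), dHLH replicate 1 (0.08) or dHLH replicate 2 (0.096). Marker genes moved with the dHLH-Bmal1 group. The 5 fibroblast or mesenchymal markers, of which 4 were detected and Thy1 was at 0, summed to 755 and 612 CPM with dHLH-Bmal1 and to 262-297 in the 4 other libraries, and the 7 melanocytic markers to 81.4 and 94.1 against 450-558. Over these libraries Sox10 ran from 66.3 to 541 CPM, and Mitf only from 132 to 188 counts. The melanocytic sums thus moved mainly with Sox10, and Pmel and Tyr reached at most 0.598 and 0.2 CPM. The mesenchymal sums were mainly Col3a1 (239-487 CPM) and Col1a1 (6.06-250), with Pdgfra and Pdgfrb at most 6.72 and 11.2. The part of these genes in the members' changes was not tested. In bulk RNA fewer cells of a type and less RNA per cell cannot be told apart.

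The hairpin experiment held a second set of YUMM2.1 cells with the 3 constructs, which the 2 doubtful labels do not touch. With shNC, both Bmal1 constructs raised Inhba and Grem1 and lowered Tgfb1 and Tgfb2. Inhba was 29.7 and 29.3 CPM with EV, 69.9 and 74.2 with WT-Bmal1, and 63.5 and 65.7 under dHLH-Bmal1. EV was the lowest group, with WT-Bmal1 2.45-fold higher (log2 1.29, SE 0.12, adjusted p = 6.48e-07) and dHLH-Bmal1 2.2-fold higher (log2 1.14, SE 0.12, adjusted p = 1.77e-06). Grem1 was 16.9 and 24.6 CPM with EV, 52.8 and 42.0 with WT-Bmal1 (log2 1.19, SE 0.18, adjusted p = 0.000109) and 49.8 and 49.5 with dHLH-Bmal1 (log2 1.26, SE 0.18, adjusted p = 3.72e-05). These 4 calls held without any single library. Tgfb2 went from 34.7 and 34.5 CPM with EV to 16.3 and 18.3 with WT-Bmal1 (log2 -0.99, SE 0.25, adjusted p = 0.00868) and to 20.1 and 12.2 with dHLH-Bmal1 (log2 -1.06, SE 0.25, adjusted p = 0.00449). Tgfb1 went from 15.4 and 27.1 to 5.85 and 9.87 (log2 -1.43, SE 0.32, adjusted p = 0.004) and to 10.4 and 8.44 CPM (log2 -1.16, SE 0.32, adjusted p = 0.0112). Tgfb2 was thus lower with WT-Bmal1 than with EV here and higher in aC3. Tgfb3 rose with dHLH-Bmal1 (3.21 and 4.15 to 10.4 and 11.4 CPM; log2 1.56, SE 0.37, adjusted p = 0.00472), and Tgfbr2 fell with WT-Bmal1 (27.6 and 26.9 to 19.0 and 14.7 CPM; log2 -0.69, SE 0.19, adjusted p = 0.0133). Tgfbr1, Tgfbr3 and Smad7 did not pass. In each comparison with EV 5 of 9 members passed, where 22.3% of all genes did for WT-Bmal1 and 26.4% for dHLH-Bmal1, and both used the same EV libraries. Between dHLH-Bmal1 and WT-Bmal1 0 of 9 members passed (1.91% of all genes). There edgeR gave 1 member, Tgfb3, an unadjusted p under 0.05 (log2 0.86, adjusted p = 0.298), and DESeq2 called 0.

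The Tgfb1 calls were lost without EV shNC replicate 2 (adjusted p = 0.09 in the WT-Bmal1 comparison, 0.21 in that of dHLH-Bmal1), WT shNC replicate 1 (0.061) or dHLH shNC replicate 2 (0.089). Those of Tgfb2 were lost without EV shNC replicate 1 (0.05) or WT shNC replicate 1 (0.069) for WT-Bmal1 and without dHLH shNC replicate 2 (0.077) for dHLH-Bmal1. Tgfb3 was lost without EV shNC replicate 1 (0.061), and Tgfbr2 without EV shNC replicate 1 (0.08), EV shNC replicate 2 (0.062) or WT shNC replicate 2 (0.18), or in 1 fit of all 40 libraries (0.084). The mesenchymal markers again moved with the constructs, summing to 195 and 164 CPM with EV, 376 and 397 with WT-Bmal1, and 612 and 594 under dHLH-Bmal1, and the melanocytic markers to 346 and 349, 122 and 119, and 41.3 and 44.3. Over all hairpin libraries Sox10 ran from 12.3 to 334 CPM and Mitf only from 14.6 to 26.8, so the melanocytic sums moved mainly with Sox10. Pmel, Tyr and Dct reached at most 0.406, 1.9 and 0.846 CPM. The mesenchymal sums were mainly Col3a1, at 155-448 CPM over all hairpin libraries, and Col1a1, at 1.85-256. The part of the markers in the members' changes was not tested.

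**Figure D4:**
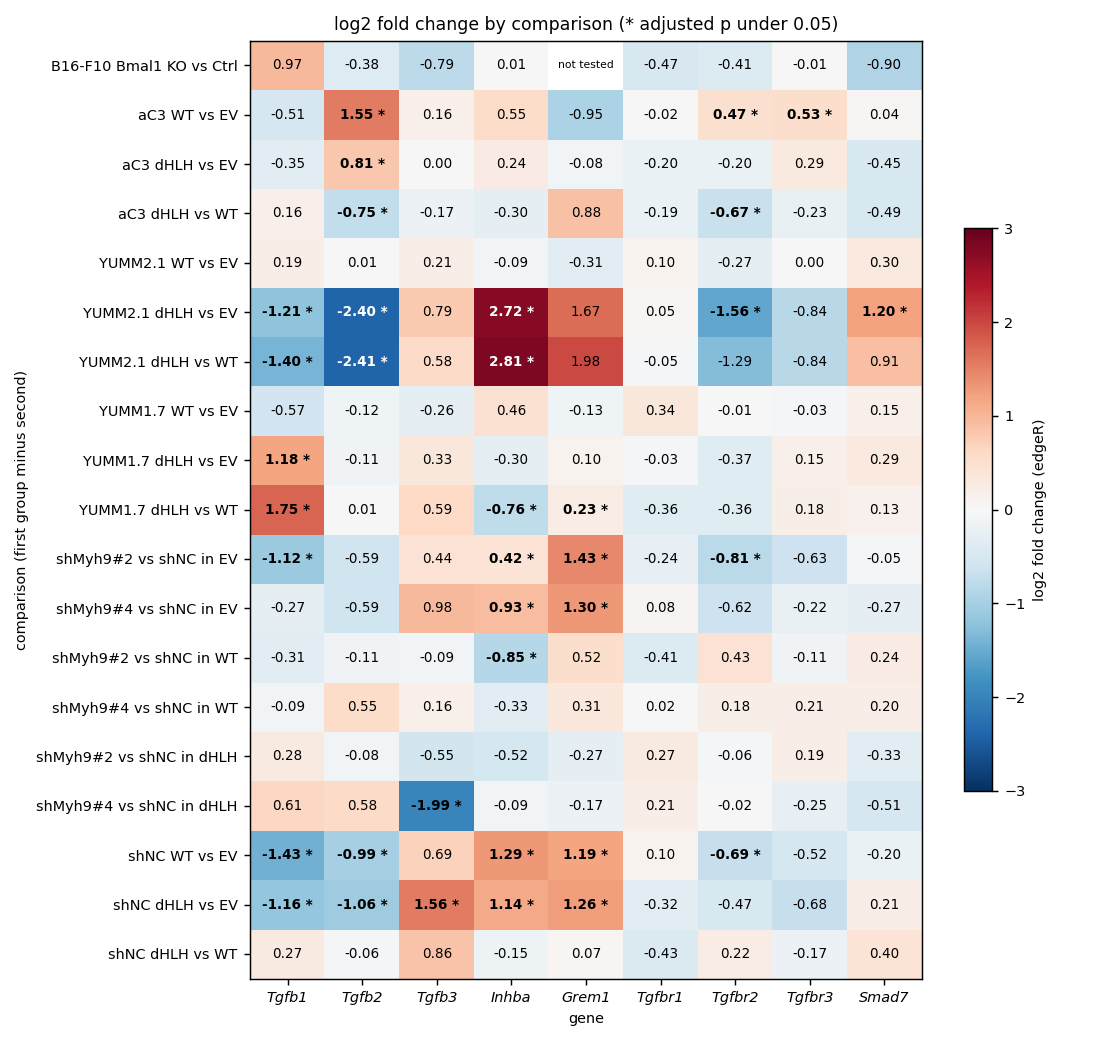
Log2 fold change (edgeR, first group minus second) of 9 members in the 19 comparisons within an experiment, with a star where the adjusted p was under 0.05. Tgfb2 is higher with WT-Bmal1 in aC3 (1.55) and lower with both constructs in shNC cells (-0.99 and -1.06), and Tgfbr1 passes in no comparison.

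In YUMM1.7 cells, which have high Grem1 and little Tgfb2, the constructs moved few members. Tgfb1 was 7.31 and 6.93 CPM with EV, 2.85 and 6.66 with WT-Bmal1, and 16.1 ± 1.2 (SD, n = 2) under dHLH-Bmal1, whose libraries were the highest, with 166 and 168 counts. It rose with dHLH-Bmal1 by 2.27-fold against EV (log2 1.18, SE 0.25, adjusted p = 0.0454) and by 3.36-fold against WT-Bmal1 (log2 1.75, SE 0.26, adjusted p = 0.00149). In YUMM2.1 cells the same construct lowered it. Inhba was 18.5 and 20.1 CPM with WT-Bmal1, and 10.2 and 12.7 under dHLH-Bmal1 (log2 -0.76, SE 0.17, adjusted p = 0.021), with EV at 13.0 and 15.4. Grem1 differed little, at 224 and 227 CPM with WT-Bmal1, and 265 and 268 under dHLH-Bmal1 (1.18-fold; log2 0.23, SE 0.053, adjusted p = 0.0275). Tgfb2 stayed at 10.6-14.8 CPM in all 6 libraries, Bmp4 at 0.715-1.27, and the receptors and Smad7 did not pass. So 0 of 10 members passed for WT-Bmal1 against EV (0.138% of all genes), 1 of 10 for dHLH-Bmal1 against EV (0.63%) and 3 of 10 between the constructs (2.57%). For WT-Bmal1 against EV, edgeR gave 3 members, Inhba, Grem1 and Tgfbr1, an unadjusted p under 0.05, and DESeq2, which left 1 member with an adjusted p, called 0. The Tgfb1 call against EV was lost without any of its 4 libraries (adjusted p from 0.22 to 0.45), whereas that against WT-Bmal1 held. The Inhba call was lost without WT replicate 2 (0.073), dHLH replicate 1 (0.16) or dHLH replicate 2 (0.058), and the Grem1 call without any of the 4 (0.064 to 0.2). In 1 fit of all 40 libraries the calls of Tgfb1 against EV (0.79), Inhba (1.0) and Grem1 (1.0) were lost as well. The mesenchymal markers stood at 656-708 CPM in all 6 YUMM1.7 libraries.

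In B16-F10 cells no member passed between the Bmal1 KO and Ctrl clones in their own fit. Of 8 tested members 0 passed (0.44% of all genes), 2 had an unadjusted p under 0.05 in edgeR, and DESeq2 called 0 of 7. These 2 were Smad7, at 7.01 and 6.35 CPM in Ctrl and 3.63 and 3.55 in KO (log2 -0.9, SE 0.27, adjusted p = 0.32), and Tgfb3, at 5.24 and 5.29 in Ctrl and 3.14 and 2.97 in KO (log2 -0.79, SE 0.29, adjusted p = 0.388). Tgfb1 stood at 7.48 and 11.9 CPM in Ctrl and 13.1 and 25.1 in KO (log2 0.97, SE 0.41, adjusted p = 0.44), with no overlap but a wide spread. Without KO replicate 1 the log2 change was 1.37 for Tgfb1, -0.83 for Tgfb3, -0.67 for Tgfbr1, -1 for Tgfbr2 and -0.92 for Smad7. Without KO replicate 2 it was -0.88 for Smad7 and -0.54 for Tgfb2. The spread in such fits came from the 2 Ctrl libraries alone, and the remaining KO library was assumed to vary like them. The share of all genes called was not taken for these fits, so no calls are given. Inhba and Grem1 were at or near 0 in both clones. In 1 fit of all 40 libraries, which shares 1 estimate of the spread, 2 members passed, where 11.7% of all genes did.

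Knockdown of Myh9, which encodes the heavy chain of non-muscle myosin IIA, was compared with shNC within each construct. In EV cells both hairpins raised Grem1 and Inhba. Grem1 was 16.9 and 24.6 CPM with shNC, 60.8 and 51.1 with shMyh9#2 (log2 1.43, SE 0.18, adjusted p = 5.95e-05) and 53.5 and 49.2 with shMyh9#4 (log2 1.3, SE 0.18, adjusted p = 0.000388). Inhba was 29.7 and 29.3 with shNC, 38.2 and 40.7 with shMyh9#2 (log2 0.42, SE 0.12, adjusted p = 0.05 after rounding, just past the threshold) and 59.0 and 53.4 with shMyh9#4 (log2 0.93, SE 0.12, adjusted p = 0.000294). The shNC libraries were the lowest in each case, and both hairpins were set against the same shNC libraries. With shMyh9#2, Tgfb1 (15.4 and 27.1 to 10.9 and 8.62 CPM; log2 -1.12, SE 0.32, adjusted p = 0.0438) and Tgfbr2 (27.6 and 26.9 to 15.4 and 15.5; log2 -0.81, SE 0.19, adjusted p = 0.0143) fell. With shMyh9#4 they were -0.27 (adjusted p = 0.857) and -0.62 (adjusted p = 0.142). So 4 of 9 members passed with shMyh9#2 (6.65% of all genes) and 2 of 9 with shMyh9#4 (1.71%). The Grem1 calls and the Inhba call with shMyh9#4 held without any single library, but in 1 fit of all 40 libraries, with the same log2 values, those with shMyh9#4 were lost (adjusted p = 0.14 for Grem1 and 0.24 for Inhba). In that fit all 3 other shMyh9#2 calls were lost too (0.51 for Inhba, 0.059 for Tgfb1 and 0.094 for Tgfbr2), and the Inhba call was also lost with DESeq2's Wald test (0.059), with no filter on low counts (0.14) and with a mean of at least 10 counts (0.054). With shMyh9#2 the Inhba and Tgfbr2 calls were lost without any of the 4 (adjusted p from 0.17 to 0.25 and from 0.083 to 0.12), and the Tgfb1 call without EV shNC replicate 2 (log2 -0.67, adjusted p = 0.4), shMyh9#2 replicate 1 (0.14) or shMyh9#2 replicate 2 (0.23). Markers moved with the hairpins as well. The melanocytic markers, mainly Sox10, summed to 346 and 349 CPM with shNC, 217 and 205 with shMyh9#2 and 250 and 282 with shMyh9#4, and the mesenchymal markers to 195 and 164, 205 and 234, and 213 and 228. Their part in the members' changes was not tested.

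In WT-Bmal1 cells shMyh9#2 lowered Inhba from 69.9 and 74.2 to 38.9 and 41.2 CPM (log2 -0.85, SE 0.12, adjusted p = 0.000234), which held without any single library and was lost in 1 fit of all 40 libraries (log2 -0.85, adjusted p = 0.13). The melanocytic sum, which moved mainly with Sox10, went there from 122 and 119 to 56.5 and 59.0 CPM. The mesenchymal markers went from 376 and 397 to 506 and 502, and the part of these markers was not tested. Inhba was the 1 of 9 members that passed (4.76% of all genes), and 0 of 9 passed with shMyh9#4 (0.236%), where Inhba stood at 53.6 and 60.9 CPM (log2 -0.33, adjusted p = 0.258). In that comparison 2 members, Inhba and Tgfb2, had an unadjusted p under 0.05 in edgeR, and DESeq2 called 0. In dHLH-Bmal1 cells 0 of 9 members passed with shMyh9#2 (0.559%), with Inhba at 63.5 and 65.7 CPM with shNC and 46.6 and 43.7 with the hairpin (log2 -0.52, adjusted p = 0.0623). Inhba was the 1 member with an unadjusted p under 0.05 there in edgeR, and DESeq2 called 1. With shMyh9#4, 1 of 9 passed (15.1%): Tgfb3 fell from 10.4 and 11.4 to 3.95 and 1.74 CPM, or 14 and 10 counts (log2 -1.99, SE 0.42, adjusted p = 0.0056). It was lost without dHLH shMyh9#4 replicate 2 (log2 -1.44, adjusted p = 0.15). The mesenchymal markers stood there at 612 and 594 CPM with shNC and 548 and 506 with the hairpin, and the melanocytic markers at 41.3 and 44.3 against 73.6 and 68.8. With shMyh9#2, which lowered Myh9 more in dHLH-Bmal1 cells (log2 -1.69 against -0.42 with shMyh9#4), Tgfb3 stood at 4.57 and 9.52 CPM and did not pass. The dHLH shMyh9#4 libraries held only 3643332 and 6001340 counts. Tgfb3 overlaps 3 other genes on the annotation, among them Ttll5, and the strand used in counting was not given in the sources used here.

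The hairpin changes of Inhba and Grem1 differed between constructs when the difference was tested. For Inhba the change in WT-Bmal1 cells minus that in EV cells was -1.28 with shMyh9#2 (SE 0.17, adjusted p = 0.000194) and -1.25 with shMyh9#4 (adjusted p = 0.00105). For dHLH-Bmal1 minus EV it was -0.95 (adjusted p = 0.00444) and -1.02 (adjusted p = 0.0019). All 4 held without any single library and were lost in 1 fit of all 40 libraries (adjusted p from 0.12 to 0.32). For Grem1 it was -0.91 for WT-Bmal1 (adjusted p = 0.0373) and -1.7 for dHLH-Bmal1 (adjusted p = 0.000612) with shMyh9#2, and -1.47 for dHLH-Bmal1 with shMyh9#4 (adjusted p = 0.00194). The Grem1 difference for WT-Bmal1 was lost without EV shNC replicate 1 (0.19), EV shMyh9#2 replicate 1 (0.17), WT shNC replicate 1 (0.13) or WT shMyh9#2 replicate 2 (0.17), and those for dHLH-Bmal1 held without any single library. Tgfbr2 differed by 1.25 for WT-Bmal1 with shMyh9#2 (adjusted p = 0.0108), which was lost without EV shNC replicate 1 (0.052), EV shMyh9#2 replicate 1 (0.05), WT shNC replicate 2 (0.075) or WT shMyh9#2 replicate 1 (0.068). Tgfb3 differed by -2.97 for dHLH-Bmal1 with shMyh9#4 (adjusted p = 0.00485), which was lost without dHLH shMyh9#4 replicate 2 (0.052). In 1 fit of all 40 libraries the 3 Grem1 differences (adjusted p from 0.099 to 0.38) and that of Tgfbr2 (0.075) were lost. With all 9 hairpin groups side by side, Inhba was lowest in the EV cells with shNC (29.7 and 29.3 CPM), Grem1 likewise (16.9 and 24.6), and the 8 other groups held 38.2-74.2 and 41.0-77.7 CPM. Of 9 members, 3 (WT-Bmal1, shMyh9#2), 1 (WT-Bmal1, shMyh9#4), 2 (dHLH-Bmal1, shMyh9#2) and 3 (dHLH-Bmal1, shMyh9#4) passed, where 5.18%, 0.741%, 3.29% and 8.51% of all genes did. The 4 differences share the EV libraries.

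The construct changes were also set against those of YUMM2.1 cells without a hairpin, as labelled. For WT-Bmal1, the Tgfb2 change of aC3 exceeded that of YUMM2.1 by 1.55 on the log2 scale (SE 0.29, adjusted p = 0.00981), 1 of 10 members (0.168% of all genes). The shNC cells differed from it in Tgfb1 (-1.63, adjusted p = 0.0343) and Tgfb2 (-1.01, adjusted p = 0.0361), 2 of 10 (7.53%), and YUMM1.7 in 0 of 10 (0.0%), with 0 members at an unadjusted p under 0.05 in edgeR and 0 called by DESeq2. Over all genes that last comparison had 0 calls, 351 genes at an unadjusted p under 0.05, and 1 call by DESeq2. For dHLH-Bmal1, aC3 differed from YUMM2.1 in Tgfb2 (3.22, adjusted p = 1.48e-08), Inhba (-2.48, adjusted p = 0.0126), Tgfbr2 (1.37, adjusted p = 0.0163) and Smad7 (-1.64, adjusted p = 0.00519), 4 of 10 (11.6%). YUMM1.7 differed in Tgfb1 (2.39, adjusted p = 0.00143), Tgfb2 (2.29, adjusted p = 1.24e-05) and Inhba (-3.04, adjusted p = 0.000126), 3 of 10 (9.42%), and the shNC cells in Tgfb2 (1.35, adjusted p = 0.0182), 1 of 10 (1.82%). With the 2 labels exchanged, the WT-Bmal1 differences of Tgfb1 and Tgfb2 in shNC cells were no longer called (-1.22 and -0.75, adjusted p = 0.14 and 0.13), and that of Tgfb2 in aC3 was 1.8 (adjusted p = 0.00018). Exchanging them also brought calls for Grem1, with dHLH-Bmal1 in aC3 (-3.33, adjusted p = 5.8e-05), YUMM1.7 (-3.17, adjusted p = 2e-08) and shNC cells (-2.01, adjusted p = 0.00023) and with WT-Bmal1 in aC3 (-3.12, adjusted p = 0.0022) and YUMM1.7 (-2.33, adjusted p = 9.8e-05). Inhba was then called with WT-Bmal1 in YUMM1.7 (-1.32, adjusted p = 0.011) and dHLH-Bmal1 in shNC cells (-2.74, adjusted p = 1.2e-07). Tgfbr2 was called with dHLH-Bmal1 in YUMM1.7 (1.42, adjusted p = 0.0015) and shNC cells (1.32, adjusted p = 0.0091) and with WT-Bmal1 in aC3 (1.33, adjusted p = 0.0087), and Tgfbr3 in aC3 with WT-Bmal1 (1.3, adjusted p = 0.027) and dHLH-Bmal1 (1.48, adjusted p = 0.0027) and in YUMM1.7 with dHLH-Bmal1 (1.32, adjusted p = 0.0074).

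As labelled, the Tgfb2 difference of aC3 with WT-Bmal1 was lost without YUMM2.1 EV replicate 1 (0.066), YUMM2.1 WT replicate 2 (0.052), aC3 EV replicate 1 (0.083), aC3 EV replicate 2 (0.067) or aC3 WT replicate 1 (0.054), while its log2 value stayed between 1.37 and 1.73. With dHLH-Bmal1, the Inhba difference of aC3 was lost without aC3 EV replicate 1 (0.17) or aC3 dHLH replicate 1 (0.075). The Tgfb2 difference of shNC cells with dHLH-Bmal1 was lost without YUMM2.1 EV replicate 1 (0.092), either EV shNC library (0.069 and 0.078), YUMM2.1 dHLH replicate 2 (0.083) or dHLH shNC replicate 1 (0.27). The Tgfbr2 difference of aC3 with dHLH-Bmal1 fell to 0.65 without YUMM2.1 EV replicate 1 (0.33) and was lost without YUMM2.1 dHLH replicate 2 (0.064), aC3 EV replicate 1 (0.079) or aC3 dHLH replicate 1 (0.059). With WT-Bmal1, the Tgfb1 difference of shNC cells was lost without either YUMM2.1 EV library (0.068 and 0.12), YUMM2.1 WT replicate 1 (0.17), EV shNC replicate 2 (0.26) or WT shNC replicate 1 (0.18), and that of Tgfb2 held only without YUMM2.1 EV replicate 1, at an adjusted p from 0.055 to 0.21 without each of the 7 others. The Tgfb2 and Smad7 differences of aC3 and the 3 of YUMM1.7 with dHLH-Bmal1 held without any single library.

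Over the 20 groups the members ranked in different orders, and many neighbours in those orders could not be told apart. Of the 19 neighbouring pairs of groups, the libraries overlapped in 17 for Tgfb1, 11 for Tgfb2, 16 for Tgfb3, 9 for Inhba, 17 for Bmp4, 11 for Grem1, 16 for Tgfbr1, 15 for Tgfbr2, 13 for Tgfbr3 and 18 for Smad7. Among the members, Inhba, Tgfb2 and Grem1 thus had the fewest overlapping pairs and Smad7 the most. For Bmp4, pairs of groups without any counts were ties and were taken as overlapping. With so few libraries per group, neighbours can also fail to overlap by chance. The same count was not taken over all genes, so these counts describe the orders and are not a result about the members. As a description of pattern, Pearson's r was taken over the 20 group means of log2 CPM, with each experiment centred on its own mean, against 14143 genes, which share the same libraries. Closest to Inhba were Pcdh19 (r = 0.927), a protocadherin, and Sgms2 (0.913), a sphingomyelin synthase. Closest to Grem1 were Sema3a (0.926), a secreted guidance cue, and Klra4 (0.910). Tgfb2 was followed most closely by Ptprj (0.941), a receptor tyrosine phosphatase, and Pdzrn4 (0.915), and Tgfbr2 by Mmp16 (0.922), a membrane-type metalloproteinase, and Ostm1 (0.856). Tgfbr3 was closest to Col15a1 (0.946) and Tlr3 (0.937), Tgfb1 to Tmprss11a (0.893) and Cflar (0.828), Tgfb3 to Glis2 (0.887) and Scx (0.858), Tgfbr1 to Tesk2 (0.811) and Aldh3a2 (0.790), and Smad7 to Taf1b (0.863) and Ptrhd1 (0.838).

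The other 79 genes of the pathway (ligands, receptors, Smads and their regulators, extracellular modulators, and TGF-β and BMP target genes) are described by their counts. With dHLH-Bmal1 against EV in YUMM2.1 cells, as labelled, 12 of 45 tested genes rose and 2 fell (13.2% of all genes called), with a median log2 change of 0.35 against -0.011 over all genes. With the labels exchanged 19 rose and 8 fell (28.7%). In shNC cells 18 of 51 rose and 5 fell with dHLH-Bmal1 (26.4% of all genes called; median 0.28 against 0.016), and 15 rose and 5 fell with WT-Bmal1 (22.3%; 0.3 against 0.017). Extracellular modulators led the counts, with 6 of 9 tested higher in YUMM2.1 and 8 of 12 higher in both shNC comparisons. Fstl1, a follistatin-like secreted protein, went from 14.3 to 288 mean CPM in YUMM2.1 with dHLH-Bmal1 (log2 4.38, SE 0.93, adjusted p = 0.026) and from 15.2 to 242 in shNC cells (log2 3.99, adjusted p = 1e-12). Fstl3, an activin-binding protein, rose from 0.394 to 4.22 mean CPM (log2 3.43, SE 0.56) and from 0.112 to 5.85 (5.48, SE 0.82). These folds start near the limit of detection, so their size is uncertain. Thbs1, an activator of latent TGF-β, rose by 2.35 and 2.23. Among target genes, Col1a1, also 1 of the mesenchymal markers, rose by 4.44 in YUMM2.1 and 6.57 in shNC cells with dHLH-Bmal1, and Fn1 (fibronectin) by 1.69 and 1.73. Pmepa1, a feedback inhibitor of TGF-β signalling, fell in shNC cells with dHLH-Bmal1 (log2 -0.99, adjusted p = 0.00016). Among ligands, the stress-induced Gdf15 rose by 5.71 and 5.16, from mean levels of only 0.232 and 0.297 CPM to 12.8 and 11.0. The activin subunit gene Inhbb rose by 4.27 in shNC cells (0.942 to 18.3 CPM), while Gdf11 fell in YUMM2.1 (log2 -0.96, adjusted p = 0.017).

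In aC3 with WT-Bmal1, where 11.2% of all genes were called, 2 of 39 tested genes rose, Fn1 (log2 0.86, adjusted p = 4.8e-05) and Tgfbi (log2 0.52, adjusted p = 0.0071), and 2 fell, Bambi, a decoy receptor (log2 -0.79, adjusted p = 0.016), and Smurf1, a ubiquitin ligase for Smads (adjusted p = 0.021). With dHLH-Bmal1 2 rose and 5 fell (10.9% of all genes called). In YUMM1.7, Fst (follistatin, which binds activin; log2 -1.58, adjusted p = 0.03) and Id3 (log2 -0.37, adjusted p = 0.016) were the 2 of 45 that fell with dHLH-Bmal1 (0.63%). With WT-Bmal1 0 of 45 passed in YUMM2.1 as labelled (3 rose with the labels exchanged, 0.705% of all genes called) and in YUMM1.7, where edgeR gave 2 and 6 an unadjusted p under 0.05 and DESeq2 called 0 in each, and 0 of 42 passed in B16-F10, where 7 had an unadjusted p under 0.05 and DESeq2 called 2. Myh9 knockdown in EV cells raised 7 of 51 genes and lowered 2 with shMyh9#2 (6.65% of all genes called), and raised 5 with shMyh9#4 (1.71%), Fstl1, Col1a1, Fn1 and Bmp2 among both. With shMyh9#4 in dHLH-Bmal1 cells, 3 rose and 10 fell (15.1% of all genes called), among them the BMP targets Id3 (log2 -2.43, adjusted p = 0.0015) and Bambi (log2 -3.23, adjusted p = 0.021), and the corepressor Tgif1 (log2 -2.5, adjusted p = 0.00088). Of the 7 BMP targets tested there, 3 fell and 1 rose. Bambi stood at a mean of only 0.771 CPM with the hairpin, near the limit of detection, so the size of its fall is uncertain. In WT-Bmal1 cells 3 rose and 7 fell with shMyh9#2 (4.76%) and 0 of 51 passed with shMyh9#4, where 12 had an unadjusted p under 0.05 in edgeR and DESeq2 called 3.

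**Figure D5:**
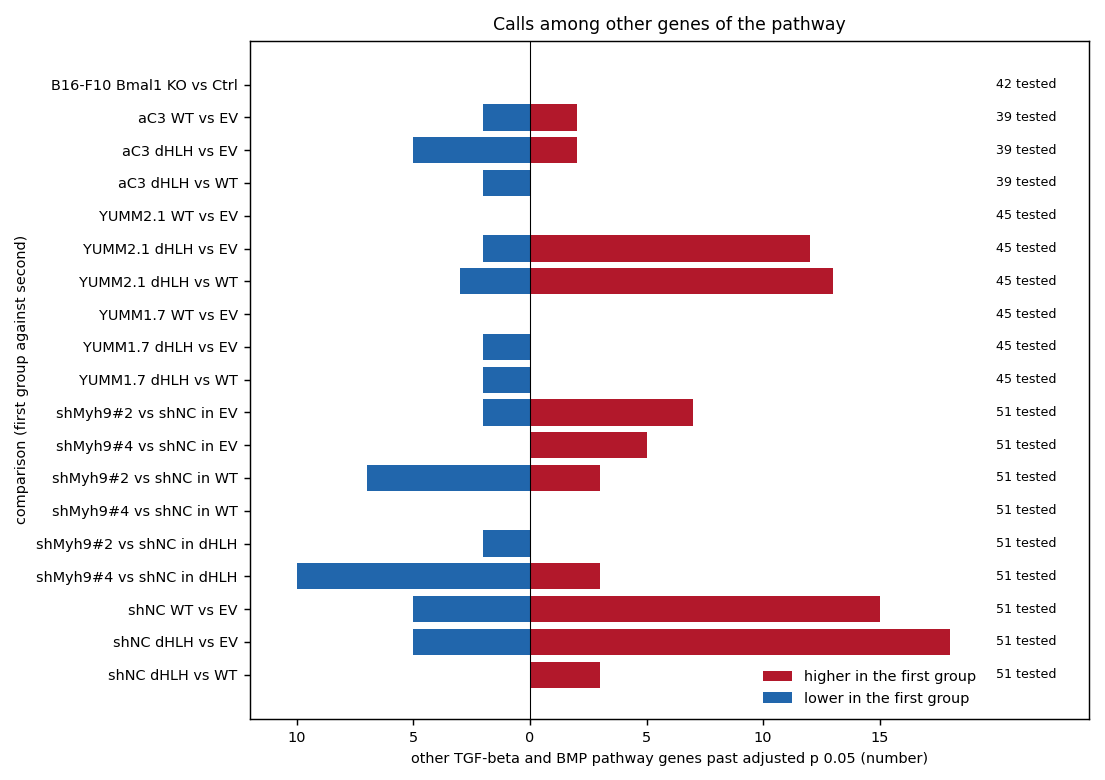
Number of other pathway genes past an adjusted p of 0.05 in each comparison within an experiment, higher in the first group to the right and lower to the left, with the number tested. The bars reach 18 higher and 5 lower for dHLH-Bmal1 against EV in shNC cells, and 3 higher and 10 lower for shMyh9#4 in dHLH-Bmal1 cells.

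On the GRCm38 annotation, Tgfb1 (ENSMUSG00000002603) lies on chromosome 7 from 25687002 to 25705077, plus strand, and Tgfb2 (ENSMUSG00000039239) on chromosome 1 from 186622792 to 186705989, minus strand. Tgfb3 (ENSMUSG00000021253) lies on chromosome 12 from 86056745 to 86079041, minus strand, and Inhba (ENSMUSG00000041324) on chromosome 13 from 16011851 to 16031621, plus strand. Bmp4 (ENSMUSG00000021835) lies on chromosome 14 from 46383520 to 46390669, minus strand, and Grem1 (ENSMUSG00000074934) on chromosome 2 from 113746164 to 113758646, minus strand. Of the receptors, Tgfbr1 (ENSMUSG00000007613) lies on chromosome 4 from 47353222 to 47414931, plus strand, Tgfbr2 (ENSMUSG00000032440) on chromosome 9 from 116084293 to 116175360, minus strand, and Tgfbr3 (ENSMUSG00000029287) on chromosome 5 from 107106570 to 107289629, minus strand. Other annotated genes overlap Tgfb3, with up to 949 counts in a library, Tgfbr3, with up to 406, Inhba, with up to 76, Bmp4, with up to 3, and Tgfb2, with 0 counts. Reads of these genes and of Tgfb3 and Tgfbr3 could be split in counting, and the values of these 2 members are uncertain to that extent.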

How the data were processed

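RNA of 40 libraries was prepared with the QuantSeq 3′ kit. Per the paper's methods, the authors aligned single reads with bowtie2 to mm10, counted them with RSEM on the Ensembl transcriptome and deposited whole-number counts per gene, which were used without change; the strand setting and the Ensembl release were not given in the sources used here. The members and gene lists were chosen with earlier results of these data known. All 10 members are named; pathway examples are the called genes of each list with the largest change and a mean of at least 10 counts. An allele of the YUMM lines and a pathway gene that this rule names are not reported here.

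Groups came from the labels. Differences were tested with edgeR 4.0.16 in R 4.3.3 (TMM, filterByExpr, quasi-likelihood F test), 1 fit per experiment and 1 fit of all 40 libraries for lines and for construct effects between lines, with Benjamini-Hochberg adjustment over all genes tested and a threshold of 0.05. Each SE was the log2 change divided by the root of F. An exact permutation test of 2 against 2 libraries cannot go below 0.333 (two-sided) and was not used. Alternatives were DESeq2 1.42.0 (size factors and Wald test), other count filters, a replicate block, exchanged labels and leaving out each library. Same-numbered libraries correlated in their deviations by 0.353 on average in YUMM2.1 (from 0.199 to 0.442 over 3 pairs of groups), by 0.0597 in aC3 and by -0.00497 in YUMM1.7. In YUMM2.1, where the doubtful labels enter this check, values with the block are printed beside the others. By the labels of the supplementary gene table, the replicate number there separates EV from WT-Bmal1 libraries. The correlation and the block would then hold that difference. Depth limits low genes: 1 CPM is about 10 counts at the median library. Intervals and floors cover counting error only.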

Additional observations from a re-analysis of the deposited data

Results flagged for a closer look

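Each of the following changes differed between cells or constructs when the difference of the 2 changes was itself tested in edgeR (log2 scale, adjusted over all genes tested). For WT-Bmal1 against EV, relative to YUMM2.1 cells without a hairpin, Tgfb2 differed in aC3 by 1.55 (adjusted p = 0.00981) and in shNC cells by -1.01 (0.0361), and Tgfb1 in shNC cells by -1.63 (0.0343). These rest on 2 YUMM2.1 libraries of doubtful label: with the labels exchanged the shNC differences were not called (adjusted p = 0.13 for Tgfb2 and 0.14 for Tgfb1), that of Tgfb2 in aC3 was (1.8, 0.00018), and Grem1 was called in aC3 (-3.12, 0.0022) and YUMM1.7 (-2.33, 9.8e-05). For dHLH-Bmal1 against EV, Tgfb2 differed by 3.22 in aC3 (1.48e-08), 2.29 in YUMM1.7 (1.24e-05) and 1.35 in shNC cells (0.0182). Inhba differed by -2.48 in aC3 (0.0126) and -3.04 in YUMM1.7 (0.000126), Tgfb1 by 2.39 in YUMM1.7 (0.00143), and Tgfbr2 by 1.37 (0.0163) and Smad7 by -1.64 (0.00519) in aC3. These dHLH-Bmal1 differences were called with the labels exchanged as well, and Grem1 was then called too, by -3.33 in aC3 (5.8e-05), -3.17 in YUMM1.7 (2e-08) and -2.01 in shNC cells (0.00023).

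For the Myh9 hairpins, relative to EV cells, the Inhba change differed in WT-Bmal1 cells by -1.28 with shMyh9#2 (adjusted p = 0.000194) and -1.25 with shMyh9#4 (0.00105), and in dHLH-Bmal1 cells by -0.95 (0.00444) and -1.02 (0.0019). The Grem1 change differed by -0.91 in WT-Bmal1 cells (0.0373) and by -1.7 in dHLH-Bmal1 cells (0.000612) with shMyh9#2, and by -1.47 in dHLH-Bmal1 cells with shMyh9#4 (0.00194). Tgfbr2 differed by 1.25 in WT-Bmal1 cells with shMyh9#2 (0.0108), and Tgfb3 by -2.97 in dHLH-Bmal1 cells with shMyh9#4 (0.00485). In 1 fit of all 40 libraries the Inhba and Grem1 differences and that of Tgfbr2 were not called (adjusted p from 0.075 to 0.38). Differences within a set share their reference libraries.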

How the results depend on the processing

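No member changed sign among calls under any alternative. Of the 319 tested pairs of member and comparison, 86 were called, 35 of them under every alternative, and 41 of the 233 others were called under at least 1. With DESeq2's Wald test 82 calls held and 4 were lost, and with its size factors all 86 held. In 1 fit of all 40 libraries the calls numbered 2 in B16-F10 (0 in its own fit), 2 in aC3 (6), 14 in YUMM2.1 (8), 1 in YUMM1.7 (4), 11 in the hairpin experiment (18) and 2 for hairpin effects between constructs (9). The share of all genes called moved too, to 11.7% in B16-F10 (0.44% in its own fit). It was 2.35% for WT-Bmal1 against EV in aC3 (11.2%). For dHLH-Bmal1 against WT-Bmal1 it was 20.4% in YUMM2.1 (13.0%) and 0.162% in YUMM1.7 (2.57%). With shMyh9#2 it was 5.15% in EV cells (6.65%) and 3.47% for the change in WT-Bmal1 minus EV cells (5.18%). With no filter on low counts YUMM2.1 had 13 and construct effects between lines 20 (11). With the 2 YUMM2.1 labels exchanged these were 14 and 22. With the replicate block they were 14 and 17, 78 calls held and 8 were lost in all; in YUMM2.1 exchanged labels together with the replicate block, an alternative chosen after seeing the data, gave 14. Outside YUMM2.1 the replicate numbers were not taken as pairs. With no filter, exchanged labels and the block, dHLH-Bmal1 against EV in YUMM2.1 called 13.6%, 28.7% and 27.1% of all genes (13.2% in the main fit). For the dHLH-Bmal1 change of aC3 minus that of YUMM2.1 the shares were 7.14%, 15.9% and 13.4% (11.6%). Leaving out 1 library gave 0-5 calls in B16-F10, 2-6 in aC3, 2-8 in YUMM2.1, 1-3 in YUMM1.7, 12-19 in the hairpin experiment, 25-29 between lines, 8-16 for construct effects between lines and 7-10 for hairpin effects; the lone library left in a group is then assumed to vary like the other groups. Shares of all genes called were not taken for the fits that leave out a library. The counts in this paragraph are thus not a result about the members, and why they move was not tested. With 2 libraries a group, calls just past the threshold depend on single libraries, and Bmp4, with at most 14 counts in a library, was too shallow for comparisons within a line.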
